A study of Mus musculus with 9 samples.

Results

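RNA-seq counts were examined for the class I histone deacetylase genes *Hdac1*, *Hdac2*, and *Hdac3* and for 7 genes of the SIN3 corepressor complex, *Sin3a*, *Sin3b*, *Sap30*, *Sap18*, *Suds3*, *Arid4a*, and *Arid4b*. These 10 members were chosen by symbol, all were found among the 25239 gene symbols counted, and all 10 were among the 14125 genes with enough reads for a test. The libraries came from E14 mouse embryonic stem cells (strain label 12910la) in medium with fetal bovine serum and leukemia inhibitory factor, with 3 libraries of control cells (genotype Rbbp4+/+), 3 of Rbbp4Ins/Ins cells, and 3 of Rbbp4Ins/Del cells. Both mutant lines carry CRISPR-Cas9 edits near the N-terminus of RBBP4, a histone-binding WD40 protein. Rbbp4Ins/Ins has a small in-frame insertion on both alleles, and Rbbp4Ins/Del has the same insertion on 1 allele and an in-frame deletion on the other. Each mutant line is 1 clone, so an effect of the *Rbbp4* genotype and a property of the clone cannot be told apart. The sources used here do not say whether the libraries of a line came from separate cultures. The p-values set a difference against the spread between these libraries, and may not extend to other cultures or clones.

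Class I deacetylases remove acetyl groups from histone tails and work inside multi-subunit complexes. HDAC1 and HDAC2 are close paralogues that sit in the NuRD, SIN3, CoREST, and MiDAC complexes, whereas HDAC3 works with the NCoR and SMRT corepressors. In the SIN3 complex, SIN3A or SIN3B is the scaffold, RBBP4 and RBBP7 contact histones, and SAP30, SAP18, SUDS3, ARID4A, and ARID4B are further subunits. In embryonic stem cells these complexes are broadly expressed and mark no cell type. The comparison asked whether the genes of the deacetylases that RBBP4 works with were themselves expressed at other levels when RBBP4 was mutated.

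Library totals lay between 15838064 and 21366868 counted reads. The mutated gene *Rbbp4* had a mean of 10005 ± 99.1 normalized counts (SD, n = 3) in control cells, 5604 ± 153 in Rbbp4Ins/Ins, and 10359 ± 238 in Rbbp4Ins/Del. Normalized counts are reads scaled to a common library size. The paper reported lower levels of the mutant RBBP4 proteins by Western blot, which RNA counts do not measure. The 9 embryonic stem cell markers checked (among them *Pou5f1*, *Nanog*, and *Sox2*) had reads in every line, with a summed level of 3595 to 3785 CPM (reads scaled to library size) per kb of exon over the control libraries, 4614 to 4737 over Rbbp4Ins/Ins, and 4377 to 4486 over Rbbp4Ins/Del. The 5 trophectoderm markers summed to 117 to 131 in the control, 24.3 to 26.8 in Rbbp4Ins/Ins, and 17.7 to 19.8 in Rbbp4Ins/Del on the same scale, with *Elf5* at no more than 3 reads per library in the control and in Rbbp4Ins/Ins and *Cdx2* so in Rbbp4Ins/Ins. The 4 neural progenitor markers summed to 19.5 to 19.6, 3.59 to 3.85, and 3.56 to 3.90 on that scale, with *Neurog2* at no more than 3 reads per library in all 3 lines. The 7 fibroblast markers summed to 4.37 to 4.95, 4.41 to 4.87, and 5.84 to 6.26, with *Lum* at no more than 3 reads per library in all 3 lines and *Col3a1* and *Postn* so in both mutants and *Dcn* in Rbbp4Ins/Ins. The 6 primitive endoderm markers summed to 3.20 to 3.45, 2.17 to 2.93, and 3.41 to 3.75. In Rbbp4Ins/Del, where the trophectoderm sum was lowest, each of the 5 trophectoderm markers had more than 3 reads in some library. A sum follows its most abundant markers and does not show that every marker of a list moved with it. The part of these marker levels in the members' results was not tested. In bulk libraries, fewer cells of a type and less RNA per cell cannot be told apart.

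In Rbbp4Ins/Ins, 4 of the 10 members were higher than in the control (*Hdac1*, *Hdac2*, *Suds3*, and *Arid4a*) and 1 was lower (*Sin3a*) by edgeR's quasi-likelihood test, with an adjusted p no higher than 0.01. Of all tested genes, 29.0% were called higher and 29.4% lower in that comparison, 58.4% in all, so 5 of 10 members is near the background. In Rbbp4Ins/Del, 5 members were higher, the former 4 and *Sap30*, and 3 were lower, *Sin3a*, *Sin3b*, and *Arid4b*. The background there was 30.6% higher and 31.9% lower, 62.5% in all. *Hdac3* and *Sap18* were called in neither line. The changes were small. The absolute log2 fold change had a median of 0.13 over the 10 members in Rbbp4Ins/Ins, against 0.30 over all tested genes, and 0.24 against 0.34 in Rbbp4Ins/Del, and it was below 1 for every member. All tested genes include ones with few counts, whose fold changes vary more, and they were not matched to the members for count level. The 2 mutant comparisons share the control libraries. The libraries of the 2 groups did not overlap for 7 of 10 members in Rbbp4Ins/Ins against control, with 69.1% of all tested genes, and for 8 of 10 in Rbbp4Ins/Del, with 72.8%.

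**Figure D1:**
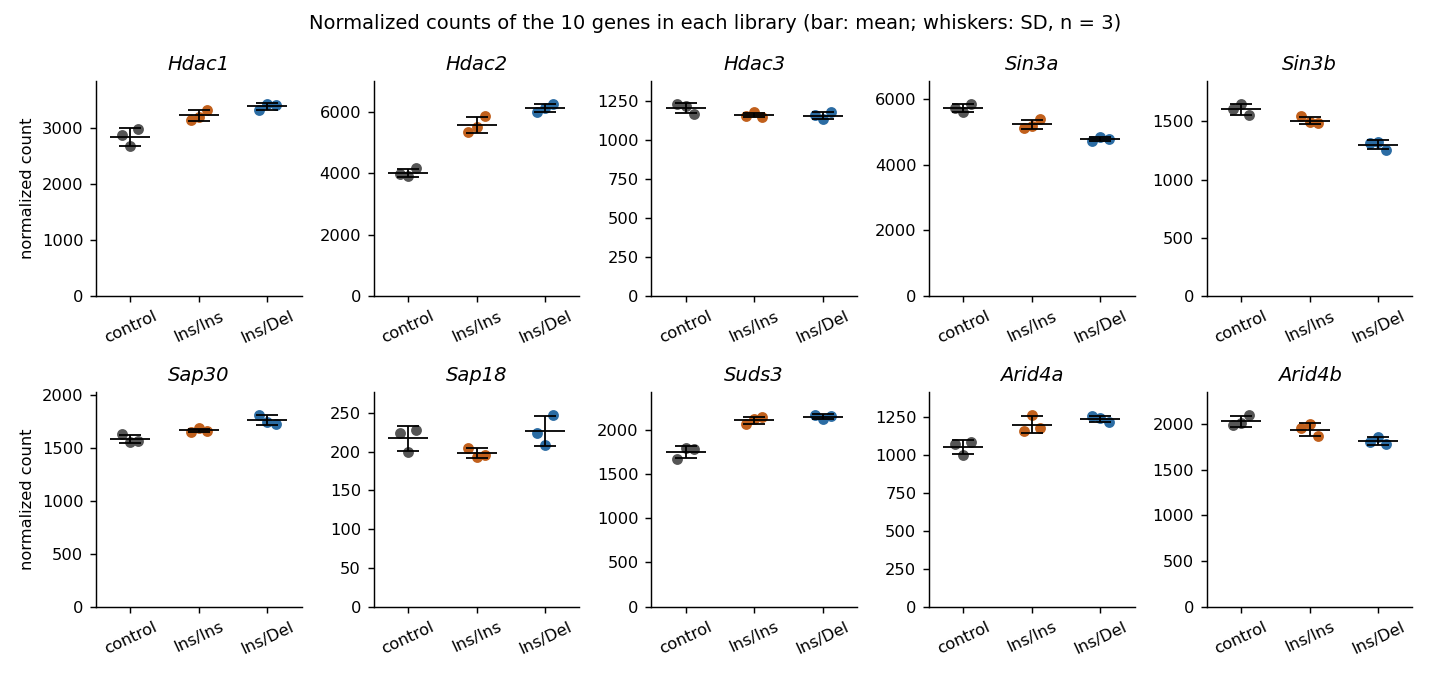
Normalized counts (y axis, from 0) of each of the 10 genes in the 3 control, 3 Ins/Ins, and 3 Ins/Del libraries (x axis), with points for libraries, a bar for the mean, and whiskers for the SD. *Hdac2* rose from a control mean of 4026 to 5585 and 6133, while *Sin3a* went from 5738 to 5243 and 4785.

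Among the catalytic subunits, *Hdac2* changed most. *Hdac2* (mm10 chromosome 10, 36974544 to 37001889, plus strand) had 3985, 3918, and 4175 normalized counts in control cells, 5366.5, 5518, and 5871 in Rbbp4Ins/Ins, and 5999.7, 6136.5, and 6262 in Rbbp4Ins/Del. Every mutant library was above every control library, and every Rbbp4Ins/Del library was above every Rbbp4Ins/Ins library. The mean was 38.7% higher in Rbbp4Ins/Ins, a log2 fold change of 0.47 (standard error 0.033, edgeR adjusted p = 1.4e-15), and 52.3% higher in Rbbp4Ins/Del, a log2 fold change of 0.61 (standard error 0.033, edgeR adjusted p = 4.1e-19).

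*Hdac1* (mm10 chromosome 4, 129516104 to 129542713, minus strand) encodes the paralogue and rose less. It had 2872, 2678.5, and 2992 normalized counts in control cells, 3153, 3200.2, and 3330.0 in Rbbp4Ins/Ins, and 3322, 3431, and 3419 in Rbbp4Ins/Del. The control libraries were below all 6 mutant libraries, and the libraries of the 2 mutants overlapped. The mean was 13.3% and 19.1% higher, with log2 fold changes of 0.18 (standard error 0.036, edgeR adjusted p = 3.4e-05) and 0.25 (standard error 0.036, edgeR adjusted p = 7.7e-08). Of the 3536 distinct windows of 50 bases in *Hdac1* transcripts, 35.5% also occur in transcripts of other annotated genes, and 31.7% of all its windows occur in *Gm10093*. Read pairs with both ends in such windows may not be assignable to 1 gene, so the level of *Hdac1* is uncertain. *Hdac2* and *Hdac3* shared no such window with another gene. In the paper's Western blot the *Rbbp4* mutations did not impair HDAC1 protein expression, which is another measure than RNA.

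*Hdac3*, the catalytic subunit of the NCoR and SMRT complexes, had 1232, 1220.4, and 1167 normalized counts in control cells, 1156, 1179, and 1149 in Rbbp4Ins/Ins, and 1159, 1133, and 1182 in Rbbp4Ins/Del. The mutant libraries overlapped the control libraries in both lines. Its log2 fold changes were -0.06 (standard error 0.044, edgeR adjusted p = 0.255) in Rbbp4Ins/Ins and -0.06 (standard error 0.044, edgeR adjusted p = 0.21) in Rbbp4Ins/Del. *Hdac3* lies on the minus strand of mm10 chromosome 18, from 37935844 to 37955016.

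**Figure D2:**
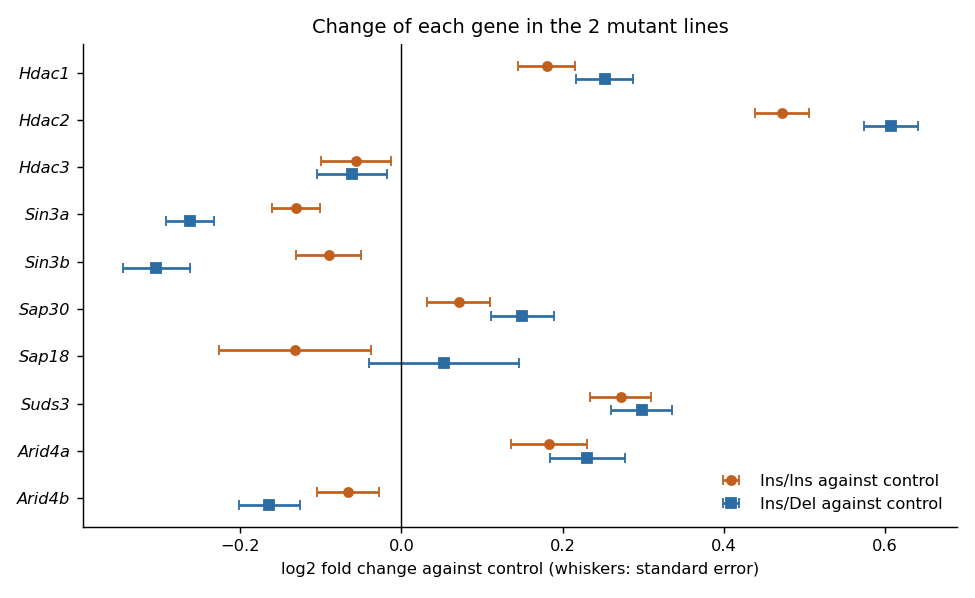
Log2 fold change against control (x axis) of each gene (y axis) in Ins/Ins (circles) and Ins/Del (squares), with whiskers for the standard error. *Hdac1*, *Hdac2*, *Suds3*, and *Arid4a* lie right of 0 and *Sin3a* lies left of 0 in both lines, and the points of *Sap18* lie on either side of 0.

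The scaffold gene *Sin3a* fell in both lines, and *Sin3b* fell in Rbbp4Ins/Del. *Sin3a* (mm10 chromosome 9, 57072040 to 57128366, plus strand) had 5739, 5621, and 5854 normalized counts in control cells, 5137, 5195, and 5398 in Rbbp4Ins/Ins, and 4725, 4835, and 4796 in Rbbp4Ins/Del. The 3 lines did not overlap, with the control highest and Rbbp4Ins/Del lowest. The mean fell by 8.62% in Rbbp4Ins/Ins (log2 fold change -0.13, standard error 0.030, edgeR adjusted p = 0.00021), and fell by 16.6% in Rbbp4Ins/Del (log2 fold change -0.26, standard error 0.030, edgeR adjusted p = 6.2e-10). The antisense gene *Man2c1os* covers 3.81% of the exonic length of *Sin3a* on the opposite strand.

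*Sin3b* (mm10 chromosome 8, 72723285 to 72758201, plus strand), the paralogous scaffold, was less abundant. It had 1610, 1649, and 1556 normalized counts in control cells, 1544, 1491, and 1485 in Rbbp4Ins/Ins, and 1316, 1326, and 1254 in Rbbp4Ins/Del. All Rbbp4Ins/Del libraries were below all others, and the highest Rbbp4Ins/Ins library was just below the lowest control library. The log2 fold change was -0.30 in Rbbp4Ins/Del (standard error 0.041, edgeR adjusted p = 3.1e-08), where the mean fell by 19.1%. In Rbbp4Ins/Ins it was -0.09 (standard error 0.040, edgeR adjusted p = 0.0478), which missed the limit of 0.01.

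The promoter sequences of *Hdac2* and of *Sin3a* and *Sin3b* are shown so that the start of the gene that rose most can be compared with those of the 2 members with the lowest log2 fold changes in Rbbp4Ins/Del. They are RefSeq windows of GRCm38.p6, from 250 bases before to 50 bases after a transcription start, and the GC box GGGCGG on either strand is in capitals. *Sin3a* has 2 annotated starts.
Hdac2, chr10:36974294-36974593, plus strand: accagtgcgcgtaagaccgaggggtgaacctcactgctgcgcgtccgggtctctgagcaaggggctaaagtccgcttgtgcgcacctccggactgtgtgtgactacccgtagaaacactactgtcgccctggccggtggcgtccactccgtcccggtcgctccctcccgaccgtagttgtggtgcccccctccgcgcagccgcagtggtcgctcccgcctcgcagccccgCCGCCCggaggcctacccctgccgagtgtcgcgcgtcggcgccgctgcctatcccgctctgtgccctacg
Sin3a, upstream start, chr9:57071790-57072089, plus strand: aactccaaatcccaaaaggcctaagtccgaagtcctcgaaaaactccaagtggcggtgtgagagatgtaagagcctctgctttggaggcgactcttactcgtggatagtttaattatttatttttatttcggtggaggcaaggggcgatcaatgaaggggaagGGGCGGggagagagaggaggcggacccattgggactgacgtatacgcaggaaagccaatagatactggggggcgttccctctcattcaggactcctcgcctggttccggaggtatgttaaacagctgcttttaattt
Sin3a, downstream start, chr9:57076126-57076425, plus strand: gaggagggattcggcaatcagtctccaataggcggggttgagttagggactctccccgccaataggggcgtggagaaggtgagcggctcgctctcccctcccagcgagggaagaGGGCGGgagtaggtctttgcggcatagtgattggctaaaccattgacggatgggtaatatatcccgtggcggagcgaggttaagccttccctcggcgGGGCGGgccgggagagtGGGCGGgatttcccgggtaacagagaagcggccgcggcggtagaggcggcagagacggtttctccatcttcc
Sin3b, chr8:72723020-72723319, plus strand: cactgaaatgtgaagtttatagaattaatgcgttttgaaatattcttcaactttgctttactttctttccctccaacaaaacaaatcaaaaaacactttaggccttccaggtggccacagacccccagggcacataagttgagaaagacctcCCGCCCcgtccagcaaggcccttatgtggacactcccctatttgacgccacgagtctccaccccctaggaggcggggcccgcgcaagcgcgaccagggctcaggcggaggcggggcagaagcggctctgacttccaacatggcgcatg
The *Hdac2* window holds 36 CpG dinucleotides and 69.7% G and C, the *Sin3a* windows 14 and 25 CpG with 50% and 62.3%, and the *Sin3b* window 14 CpG with 53.3%, beside medians of 7 CpG and 52.7% over the 32851 promoters of the table. The GC box occurred 1 time in the *Hdac2* and *Sin3b* windows, 1 time at the upstream and 3 times at the downstream start of *Sin3a*, and in 35.7% of all promoters. CCAAT, on either strand, occurred 2 and 3 times in the *Sin3a* windows, was found in neither the *Hdac2* nor the *Sin3b* window, and occurred in 37.4% of all promoters. The MAX-type E-box CACGTG, found in 7.15% of all promoters, occurred in none of these windows. These letter matches are a description, and they show no binding.

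Of the subunits that join deacetylase and scaffold, *Suds3* rose in both lines. SUDS3 binds SIN3 and HDAC1 and supports the enzymatic activity of the complex. *Suds3* (mm10 chromosome 5, 117091680 to 117116113, minus strand) reached 1669, 1792, and 1783 normalized counts in control cells, 2066, 2119, and 2142 in Rbbp4Ins/Ins, and 2170.3, 2117, and 2153 in Rbbp4Ins/Del. The controls lay below all mutant libraries, and the mutants overlapped. The mean was 20.6% higher in Rbbp4Ins/Ins (log2 fold change 0.27, standard error 0.038, edgeR adjusted p = 5.3e-08) and 22.8% higher in Rbbp4Ins/Del (log2 fold change 0.30, standard error 0.038, edgeR adjusted p = 6.1e-09).

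*Sap30* (mm10 chromosome 8, 57482707 to 57487860, minus strand) encodes a bridge between SIN3 and HDAC1. It had 1628, 1556, and 1561 normalized counts in control cells, 1651, 1681, and 1659.7 in Rbbp4Ins/Ins, and 1809, 1741, and 1718 in Rbbp4Ins/Del. The 3 lines did not overlap, with Rbbp4Ins/Del highest. The log2 fold change was 0.07 in Rbbp4Ins/Ins (standard error 0.039, edgeR adjusted p = 0.103) and 0.15 in Rbbp4Ins/Del (standard error 0.039, edgeR adjusted p = 0.00079).

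*Arid4a* and *Arid4b* encode paralogous chromodomain and ARID subunits, of which ARID4A was found as a partner of the retinoblastoma protein. *Arid4a* (mm10 chromosome 12, 71015990 to 71098592, plus strand) had 1075, 1000.4, and 1088 normalized counts in control cells, 1156, 1265, and 1179 in Rbbp4Ins/Ins, and 1255, 1242, and 1215 in Rbbp4Ins/Del, so all controls were below all mutant libraries. Its log2 fold change was 0.18 in Rbbp4Ins/Ins (standard error 0.047, edgeR adjusted p = 0.00078) and 0.23 in Rbbp4Ins/Del (standard error 0.047, edgeR adjusted p = 3.8e-05). Without the second Rbbp4Ins/Ins library it was 0.15 in that line, with an edgeR adjusted p of 0.012.

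*Arid4b* (mm10 chromosome 13, 14063232 to 14199603, plus strand) had 1989, 2009, and 2103 normalized counts in control cells, 1955, 2003, and 1865 in Rbbp4Ins/Ins, and 1803, 1858, and 1777 in Rbbp4Ins/Del. The Rbbp4Ins/Ins libraries overlapped the control libraries, and the Rbbp4Ins/Del libraries were below both. The log2 fold change was -0.07 in Rbbp4Ins/Ins (standard error 0.038, edgeR adjusted p = 0.121) and -0.16 in Rbbp4Ins/Del (standard error 0.038, edgeR adjusted p = 0.00026). The opposite-strand gene *Ggps1* overlaps 1.51% of its exonic length.

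The balance of paralogues was measured within each library as the share of 1 paralogue in the pair, from counts per kb of exon. *Hdac1* made up 48.3%, 47.0%, and 48.2% of *Hdac1* plus *Hdac2* in the control libraries, 43.3%, 43.0%, and 42.4% in Rbbp4Ins/Ins, and 41.8%, 42.1%, and 41.5% in Rbbp4Ins/Del. All mutant libraries lay below all controls. The difference of the means was -4.98 percentage points in Rbbp4Ins/Ins and -6.07 in Rbbp4Ins/Del. *Arid4a* made up 62.0%, 60.1%, and 61.0% of *Arid4a* plus *Arid4b* in the control, 64.1%, 65.6%, and 65.6% in Rbbp4Ins/Ins, and 67.8%, 66.9%, and 67.4% in Rbbp4Ins/Del. Here all mutant libraries lay above all controls, by 4.10 and 6.32 points on average. For each of these 4 differences the exact two-sided permutation test gave p = 0.1, the smallest that 3 libraries against 3 allow. The share of *Sin3a* in *Sin3a* plus *Sin3b* was 83.0% ± 0.696 (SD, n = 3) in the control, 82.6% ± 0.634 in Rbbp4Ins/Ins, and 83.4% ± 0.451 in Rbbp4Ins/Del. The groups overlapped, with exact permutation p = 0.5 and p = 0.4 for the mutants against the control, so a change in the balance of the scaffolds was not detected. The levels of the shares depended on the length used. With the longest annotated transcript the control mean was 37.8% for *Arid4a* and 53.0% for *Hdac1*, so the more abundant paralogue changed in both pairs, while the differences from the control were 4.22 and 6.66 points for *Arid4a* and -5.02 and -6.13 for *Hdac1*. The part of the bases that *Hdac1* shares with other transcripts was not tested.

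**Figure D3:**
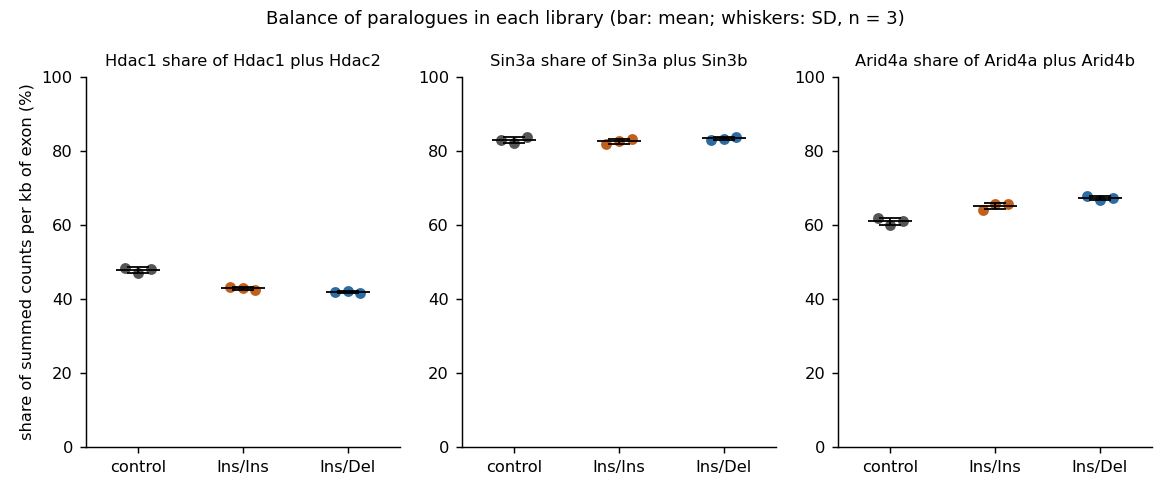
Share (y axis, percent of the summed counts per kb of exon, from 0 to 100) of *Hdac1*, *Sin3a*, and *Arid4a* in their paralogue pairs in each library (points, 3 per line), with a bar for the mean and whiskers for the SD. The *Hdac1* share is lower and the *Arid4a* share higher in all 6 mutant libraries than in the 3 control libraries, and the *Sin3a* shares overlap.

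*Sap18* (mm10 chromosome 14, 57798180 to 57806638, plus strand), whose small ubiquitin-fold protein also belongs to an RNA-processing complex, had the lowest counts of the members. It had 224, 199, and 228 normalized counts in control cells, 205, 193, and 196 in Rbbp4Ins/Ins, and 224, 208, and 248 in Rbbp4Ins/Del. The libraries of each mutant overlapped those of the control. The log2 fold change was -0.13 in Rbbp4Ins/Ins (standard error 0.095, edgeR adjusted p = 0.218) and 0.05 in Rbbp4Ins/Del (standard error 0.093, edgeR adjusted p = 0.622).

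Most genes around *Sap18* were lower in both mutants. Within 500 kb, 10 other genes were tested, and 8 were called lower and 0 higher in each line, where 29.4% and 31.9% of all tested genes were called lower. The median log2 fold change of these 10 was -0.97 in Rbbp4Ins/Ins and -0.90 in Rbbp4Ins/Del, beside 0.0038 and -0.011 over all tested genes. The nearest, *Ska3*, overlaps 1.43% of the exonic length of *Sap18* on the opposite strand, and its log2 fold changes were -0.64 and -0.53. *Lats2*, a kinase gene of the Hippo pathway whose body begins 39.8 kb away, had 179 ± 16.2 normalized counts (SD, n = 3) in control cells, 33.8 ± 3.98 in Rbbp4Ins/Ins, and 61.0 ± 13.3 in Rbbp4Ins/Del. *Micu2*, a regulator of mitochondrial calcium uptake 110 kb away, had 656 ± 22.9 (SD, n = 3), 298 ± 16.8, and 238 ± 16.1. *Eef1akmt1* and *Ift88* were also over 2-fold lower in both lines. The difference between *Sap18* and these neighbours was not tested. Of the 50-base windows in *Sap18* transcripts, 15.3% occur in transcripts of other genes, and 13.2% of all its windows occur in *Sap18b*, which had 0 reads in all 9 libraries. Read pairs with both ends in shared bases may not be assignable to 1 gene, and how many were lost was not tested. The level of *Sap18*, its fold changes, and their contrast with the neighbours are therefore uncertain.

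Around *Hdac1* genes were called in both directions. *Hdac1* lies 181 kb from *Rbbp4* on the same chromosome and strand, and 26 other genes within 500 kb, *Rbbp4* among them, were tested. In Rbbp4Ins/Ins 6 of them were called higher and 5 lower, beside 29.0% and 29.4% of all tested genes, and in Rbbp4Ins/Del 6 and 6, beside 30.6% and 31.9%, with median log2 fold changes of 0.02 and 0.06. *Hpca*, which encodes the neuronal calcium sensor hippocalcin, was the only one of the 26 that was over 2-fold changed in both lines, with log2 fold changes of 1.58 and 1.68. *Marcksl1*, 0.119 kb from *Hdac1*, was lower, with -0.53 and -0.58. The single tested neighbour of *Hdac2*, *Marcks*, was lower, with log2 fold changes of -0.72 and -0.82, whereas *Hdac2* was higher. Of the 30 tested neighbours of *Hdac3*, 2 were higher and 10 lower in Rbbp4Ins/Ins and 2 were higher and 14 lower in Rbbp4Ins/Del, with median log2 fold changes of -0.42 and -0.46, and 5 of them, *Arap3*, *Pcdh1*, *Pcdhga4*, *Pcdhga9*, and *Pcdhgb4*, were called lower in both lines with an over 2-fold change in each. Most of the 30 were gamma-protocadherin (*Pcdhg*) genes of 1 cluster, whose bodies end at nearly the same place, 94.0 kb from *Hdac3*. They made up much of the lower calls and do not stand for separate places. Most had low counts, as *Pcdhga9*, with means of 14.1 normalized counts in the control, 2.97 in Rbbp4Ins/Ins, and 3.85 in Rbbp4Ins/Del. *Pcdhgb5* had log2 fold changes of -1.14 and -1.24, and its edgeR adjusted p of 0.011 in Rbbp4Ins/Ins missed the limit. Of the 19 tested neighbours of *Sin3a*, 5 were higher and 7 lower in Rbbp4Ins/Ins and 7 were higher and 7 lower in Rbbp4Ins/Del, and *Snx33*, a sorting nexin gene, was called lower with log2 fold changes of -1.43 and -1.52. Over the neighbours of all 10 members, 123 distinct genes, 48.8% were called in Rbbp4Ins/Ins and 54.5% in Rbbp4Ins/Del, beside 58.4% and 62.5% of all tested genes.

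**Figure D4:**
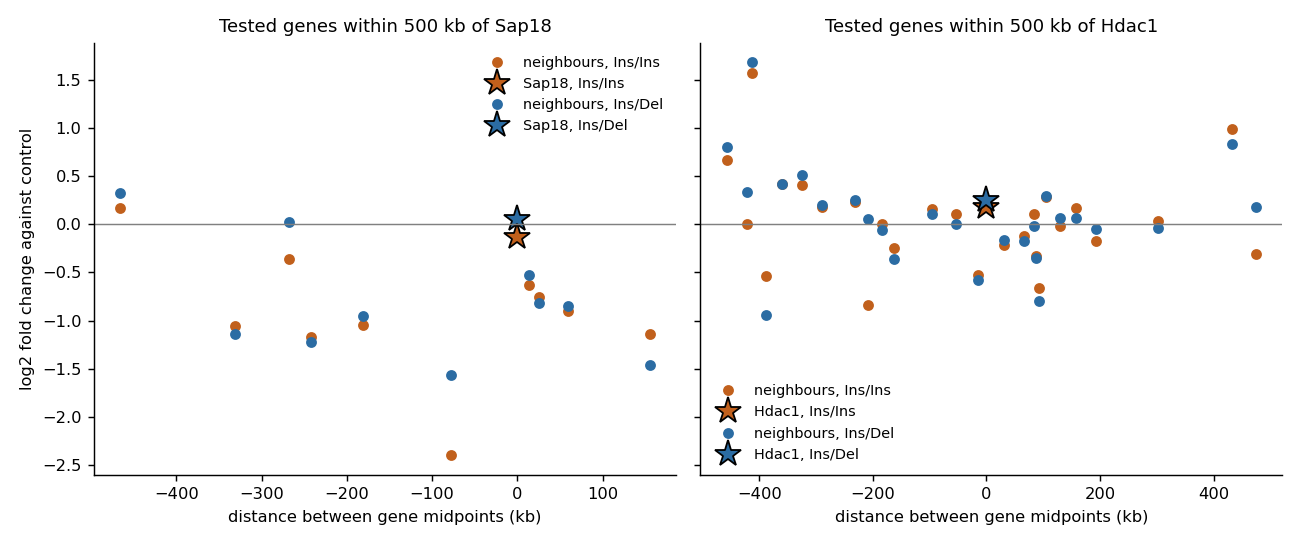
Log2 fold change against control (y axis) of the tested genes within 500 kb of *Sap18* (left) and *Hdac1* (right) by the distance between gene midpoints (x axis, kb), with stars for *Sap18* and *Hdac1*. Of the 10 neighbours of *Sap18*, 8 were called lower in each line, and the 26 neighbours of *Hdac1* lie on both sides of 0. *Sap18* lies near 0, with fold changes that are uncertain because of bases shared with other transcripts.

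Levels of different members can be compared only per length, here as CPM per kb of the union of exons. In the control the order was *Sap30* (73.6 ± 1.87, SD, n = 3), *Sin3a* (58.4 ± 1.19), *Hdac2* (49.3 ± 1.63), *Hdac1* (45.3 ± 2.52), *Hdac3* (16.3 ± 0.467), *Sin3b* (11.96 ± 0.348), *Arid4a* (10.3 ± 0.461), *Suds3* (8.46 ± 0.333), *Arid4b* (6.57 ± 0.195), and *Sap18* (2.19 ± 0.160). In every control library each of these genes was above the next. In Rbbp4Ins/Ins *Hdac2*, at 68.4 ± 3.17, stood above *Sin3a*, at 53.4 ± 1.39, and the libraries of *Sin3a* and *Hdac1* and of *Arid4a* and *Sin3b* overlapped. In Rbbp4Ins/Del *Hdac1*, at 53.9 ± 0.950, was also above *Sin3a*, at 48.7 ± 0.570. The order depended on the length used. With the longest annotated transcript of each gene, an alternative chosen after the data were seen, *Hdac1* was first in the control at 76.6, with libraries that overlapped those of *Sap30*, and *Arid4b* went from 6.57 to 19.0. *Sap18* was last in every line with both lengths, but its level is uncertain because it shares bases with other transcripts.

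The mutants were then compared with each other. *Hdac2* was 9.80% higher in Rbbp4Ins/Del than in Rbbp4Ins/Ins (log2 difference 0.14, standard error 0.032, edgeR adjusted p = 0.00237), *Sin3a* fell by 8.74% (log2 difference -0.13, standard error 0.030, edgeR adjusted p = 0.00153), and *Sin3b* fell by 13.8% (log2 difference -0.21, standard error 0.042, edgeR adjusted p = 0.00023). These 3 members are to be read against 10.8% of all tested genes, 6.17% higher and 4.64% lower in Rbbp4Ins/Del. The *Hdac2* and *Sin3a* calls were lost when single libraries were left out, with differences of similar size. Without Rbbp4Ins/Ins library 1 or 2 or Rbbp4Ins/Del library 2 or 3, the log2 difference of *Hdac2* was between 0.11 and 0.13 (edgeR adjusted p between 0.014 and 0.037). Without Rbbp4Ins/Ins library 3 or Rbbp4Ins/Del library 1, that of *Sin3a* was -0.11 and -0.12 (edgeR adjusted p = 0.022 and 0.012). The libraries of the 2 mutants did not overlap for 6 of 10 members, with 34.1% of all tested genes. The log2 difference of the other 7 members lay between -0.10 for *Arid4b* (edgeR adjusted p = 0.0731) and 0.18 for *Sap18* (edgeR adjusted p = 0.18).

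Other subunits of the SIN3 complex were taken from a list of 19 symbols, of which 17 were tested, *Rbbp4* and *Rbbp7* among them. In Rbbp4Ins/Ins 5 were higher and 3 lower, and in Rbbp4Ins/Del 6 were higher and 7 lower, with median log2 fold changes of -0.02 and 0.0022. In all, 47.1% and 76.5% were called, beside 58.4% and 62.5% of all tested genes. *Sinhcaf*, a SIN3 subunit known from embryonic stem cells, went from 2585 ± 86.7 normalized counts (SD, n = 3) to 1652 ± 71.6 in Rbbp4Ins/Ins and 1691 ± 61.0 in Rbbp4Ins/Del, with log2 fold changes of -0.65 and -0.61. *Kdm5b*, an H3K4 demethylase gene, rose from 15182.5 ± 247 (SD, n = 3) to 20722 ± 229 and 19564 ± 294. The related demethylase gene *Kdm5a* was lower, with log2 fold changes of -0.13 and -0.20, and *Ing1*, whose protein reads H3K4 methylation, was higher, with 0.21 and 0.19. *Rbbp7*, the paralogue of *Rbbp4*, had log2 fold changes of -0.08 in Rbbp4Ins/Ins (edgeR adjusted p = 0.0129) and -0.22 in Rbbp4Ins/Del (edgeR adjusted p = 4.7e-09).

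Another list held DNA-binding factors that recruit SIN3, and also *Max*, *Mlx*, and *Mga*, whose proteins pair within the same family. Of 15 tested, 7 were higher and 3 lower in Rbbp4Ins/Ins, and 8 were higher and 2 lower in Rbbp4Ins/Del, with median log2 fold changes of 0.14 and 0.22. In all, 66.7% were called in each line, near the 58.4% and 62.5% of all tested genes, and the balance of directions was not tested. *Mxd3* and *Mxd1*, which encode MAX partners of the MAD family, had log2 fold changes of 0.52 and 0.80 and of 0.58 and 0.66. *Mga*, whose protein pairs with MAX and is a scaffold of a Polycomb complex, rose from 9004 ± 575 normalized counts (SD, n = 3) to 11938 ± 292 and 12772 ± 91.9. *Mnt*, another MAX partner gene, was lower, with -0.27 and -0.48.

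A further list held partners of class I deacetylases outside SIN3. Of 17 tested NCoR, CoREST, and MiDAC genes, 2 were higher and 6 lower in Rbbp4Ins/Ins, and 3 were higher and 10 lower in Rbbp4Ins/Del, with median log2 fold changes of -0.09 and -0.22. In all, 47.1% and 76.5% were called, beside 58.4% and 62.5% of all tested genes, and the balance of directions was not tested. The CoREST genes *Rcor2* and *Phf21a* had log2 fold changes of -0.69 and -0.60 and of -0.65 and -0.43, and *Trerf1*, of MiDAC, had 0.51 and 0.66. *Zfp541*, a germ cell partner of HDAC1, was lower in both lines from few reads, with 19.6 ± 7.66 normalized counts (SD, n = 3) in control cells, 7.99 ± 1.40 in Rbbp4Ins/Ins, and 6.94 ± 2.04 in Rbbp4Ins/Del.

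Among the 8 other zinc-dependent deacetylases, 1 was higher and 2 lower in Rbbp4Ins/Ins, and 1 was higher and 5 lower in Rbbp4Ins/Del, with medians of -0.21 and -0.48. In all, 37.5% and 75% were called, beside 58.4% and 62.5% of all tested genes. *Hdac7*, a class IIa gene, had 139, 172, and 129 normalized counts in control cells, 37.6, 36.1, and 29.6 in Rbbp4Ins/Ins, and 18.4, 27.97, and 21.98 in Rbbp4Ins/Del. Its log2 fold changes of -2.08 (standard error 0.166, edgeR adjusted p = 5.5e-14) and -2.66 (standard error 0.181, edgeR adjusted p = 4.1e-16) were larger in size than those of the 10 members. The class IIa gene *Hdac4* was lower too, with -0.42 and -0.51. *Hdac8*, the remaining class I gene, had log2 fold changes of -0.27 (edgeR adjusted p = 0.0352) in Rbbp4Ins/Ins and -0.46 (edgeR adjusted p = 0.00063) in Rbbp4Ins/Del.

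**Figure D5:**
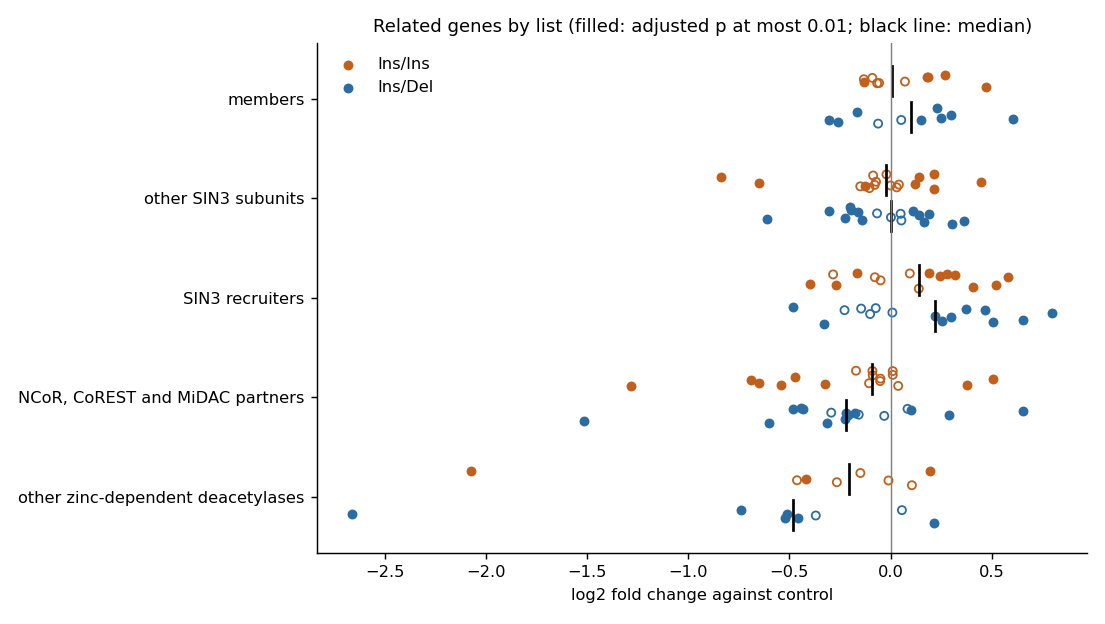
Log2 fold change against control (x axis) of the 10 members and of the tested genes of 4 related lists (y axis) in Ins/Ins and Ins/Del, with filled points at an adjusted p of at most 0.01, open points above it, and black lines for medians. The list labelled SIN3 recruiters, which also holds *Max*, *Mlx*, and *Mga*, has medians of 0.14 and 0.22. The other zinc-dependent deacetylases have -0.21 and -0.48, and the 2 points farthest left are *Hdac7*.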

How the data were processed

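RNA of E14 embryonic stem cells was measured in 9 libraries, 3 per line, and each library was put in its line by its genotype label. The authors used the Kapa mRNA HyperPrep kit for the libraries, sequenced paired ends of 50 bp, aligned them to mm10 with STAR (2.7.3), and counted genes with HTSeq, whose version, annotation, and strand setting are not given in the sources used here. The deposited values are raw counts per gene symbol. Without a known strand setting, reads of overlapping opposite-strand genes cannot be told apart.

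Genes were filtered with filterByExpr, scaled by TMM (factors between 0.993 and 1.016), and tested with edgeR (4.0.16, R 4.3.3) by the quasi-likelihood test, with all 9 libraries and 3 groups in 1 fit and no covariate. P-values were adjusted by Benjamini-Hochberg over 14125 genes, with a limit of 0.01. The standard error is the absolute log2 fold change over the square root of F. Counts were simulated for 13885 genes, of which 194 differed by 1.5-fold or 2-fold. The test recovered 164 and 161 of these in the 2 mutant contrasts with the control, with 2 and 0 false calls. Recovery of smaller differences, which most members had, was not tested. A case with as large a part of genes called as in these libraries was not tested either. Positions, exon lengths, and shared windows came from GENCODE M21 (GRCm38, mm10). Promoters came from the set of RefSeq windows (GRCm38.p6) used here, in which 7 of the 10 members were matched by symbol. Tables used Python (3.11.15), pandas (2.3.3), and scipy (1.17.1).

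The members and lists were chosen with earlier results of these data known. All members are named. Of each related list, at most 4 genes are named, those with the largest mean change that passed in both mutants in 1 direction with every mutant library beyond every control library. *Rbbp4* and *Rbbp7* are named as the mutated gene and its paralogue, and neighbours where called in both mutants in 1 direction with an over 2-fold change in each. *Ska3*, *Marcks*, *Marcksl1*, *Pcdhgb5*, and *Hdac8* were named after their values were seen. The alternatives were DESeq2 (1.42.0), other scalings, no filter, 2-group fits, a replicate block, a limit of 0.05, other lengths and windows, and each library left out.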

Additional observations from a re-analysis of the deposited data

Results flagged for a closer look

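The 2 mutant lines differed from each other in 3 members by the direct test of their difference, beside 10.8% of all tested genes. *Hdac2* was higher in Rbbp4Ins/Del than in Rbbp4Ins/Ins by 0.14 on the log2 scale (edgeR adjusted p = 0.00237), and all 3 Rbbp4Ins/Del libraries were above all 3 Rbbp4Ins/Ins libraries. *Sin3a* had a log2 difference of -0.13 (edgeR adjusted p = 0.00153) and *Sin3b* one of -0.21 (edgeR adjusted p = 0.00023), and for each all 3 Rbbp4Ins/Del libraries were below all 3 Rbbp4Ins/Ins libraries. The *Hdac2* call was lost without any 1 of 4 of the 6 mutant libraries (edgeR adjusted p up to 0.037) and the *Sin3a* call without any 1 of 2 (up to 0.022). The *Rbbp4* RNA level itself differed between the mutants, with a log2 difference of 0.89 (edgeR adjusted p = 4.1e-24), and its part in these differences was not tested.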

How the results depend on the processing

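Of the 16 called member values, 13 kept their direction and their side of the limit in all 15 alternatives each. The exceptions were *Arid4a* in Rbbp4Ins/Ins and *Hdac2* and *Sin3a* between the mutants, which missed the limit when single libraries were left out. With an adjusted p limit of 0.05, 2 members in place of 1 were lower in Rbbp4Ins/Ins, with *Sin3b* added, and between the mutants 2682 genes in place of 1527 and 11 related genes in place of 7 were called. With each library left out in turn, the members called higher between the mutants ranged from 0 to 1, those called lower from 1 to 2, and all genes called from 988 (without Rbbp4Ins/Del library 2; 1014 without Rbbp4Ins/Ins library 1) to 1646. Signs turned in uncalled values only. *Sap18* in Rbbp4Ins/Del was -0.0079 without Rbbp4Ins/Del library 3 and at most 0.12 without another library, and *Hdac3* between the mutants, at -0.0049, became 0.0060 with DESeq2, 0.0059 with DESeq2 size factors, 0.0051 without Rbbp4Ins/Ins library 2, and 0.011 without Rbbp4Ins/Del library 2, and was lowest at -0.019 without Rbbp4Ins/Del library 3. The differences in paralogue shares kept their direction with other lengths, but the levels moved, and the control share of *Arid4a* was 61.0% per kb of exon, 37.8% with the longest transcript, and 34.1% from counts without length. Libraries with the same replicate number did not deviate together (correlations between -0.028 and 0.056), and with the replicate number as a block no member changed its call and the genes called numbered 8225 in Rbbp4Ins/Ins, 8795 in Rbbp4Ins/Del, and 1499 between the mutants, in place of 8252, 8829, and 1527. The counts of *Sap18*, 171 to 262 reads per library, limit what could be detected there.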
